A study of Mus musculus with 25 samples.

Results

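The genes described here are 10 genes of matricellular proteins and activated fibroblasts: Postn, Cilp, Comp, Thbs1, Thbs4, Tnc, Fn1, Ccn2, Spp1 and Meox1. They were chosen by symbol, and each matched exactly 1 of the 56941 rows of a table of RNA-seq read counts per gene from 25 mouse hearts. The study compared wild-type (WT) and MCT1KO mice; MCT1, encoded by Slc16a1, carries lactate and pyruvate across membranes, and the study asked how lactate metabolism bears on cardiac hypertrophy. Each genotype was studied without a pump, with a pump delivering saline, and under the agonists labelled Ang/PE, which induce hypertrophy. The groups held 4 WT and 3 MCT1KO hearts without a pump, 6 WT and 4 MCT1KO hearts with saline, and 3 WT and 5 MCT1KO hearts with Ang/PE. Strain, age, sex, dose, length of treatment, and the allele and cell type of the knockout are not given in the sources used here.

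Matricellular proteins are secreted into the extracellular matrix, where they act on cell adhesion and signalling rather than serving as its main scaffold. In the heart they are low in the resting adult and are known to rise when fibroblasts are activated by injury, pressure load or transforming growth factor beta. Fibronectin (Fn1) is an adhesive matrix protein assembled into fibrils on which other matrix proteins are laid down, and Meox1 is a homeobox transcription factor of stressed cardiac fibroblasts.

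Levels are in CPM, read counts divided by the library's total after scaling by edgeR's TMM factors and put on a common scale, and a gene was called changed when the Benjamini-Hochberg adjusted p of edgeR's quasi-likelihood test, over 17682 tested genes, was below 0.05. All 10 genes passed the filter on low counts. The libraries held 12216704 to 24880683 counted reads, and the MCT1KO Ang/PE hearts held 12216704 to 16565155, the lowest median of the 6 groups. Slc16a1 RNA was not called lower in the libraries labelled MCT1KO: by treatment, its log2 difference from WT was -0.02 in hearts that had no pump, -0.33 in saline hearts and -0.18 in Ang/PE hearts (edgeR adjusted p = 0.976, 0.219 and 0.807). The genotype names below are therefore the labels. Hearts holding more Xist than Ddx3y RNA, as female hearts do, numbered 2 of 4, 1 of 6 and 3 of 3 in WT and 0 of 3, 3 of 4 and 4 of 5 in MCT1KO (no pump, saline, Ang/PE), so sex and treatment were not balanced. The summed level of 3 atrial muscle markers (Myl4, Myl7, Sln) was at most 5.73 CPM in every heart of the no pump and Ang/PE groups and reached 1136 CPM in WT and 3679 CPM in MCT1KO saline hearts. Of 5 adipocyte markers, the sum was at most 18.2 CPM outside the saline groups and reached 1216 CPM in MCT1KO saline replicate 4. The atrial sum was above that of every heart of the other groups in 8 of the 10 saline hearts, and the adipocyte sum in 6. Each response of the 10 genes to Ang/PE is given against saline and against no pump; those 2 comparisons share the Ang/PE hearts. The tissue label fitted the markers of heart muscle and fibroblasts, since the 6 cardiomyocyte markers summed to 31760 to 62850 CPM and all 8 fibroblast identity markers were present in every heart.

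Under Ang/PE, 7 of the 10 genes rose against saline when the genotypes were averaged: Thbs4, Thbs1, Cilp, Postn, Ccn2, Meox1 and Tnc, from 9.30-fold for Thbs4 to 1.90-fold for Tnc. Across all genes, 3.89% were called higher in that comparison. The median log2 fold change was 1.58 over the 10 genes and -0.01 over all genes tested. Comp, Fn1 and Spp1 did not pass. Against no pump, 5 rose, namely Thbs4, Thbs1, Postn, Tnc and Meox1, against 0.911% of all genes called higher, and the median over the 10 genes was 1.85. None of the 10 was called lower in any comparison.

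**Figure D1:**
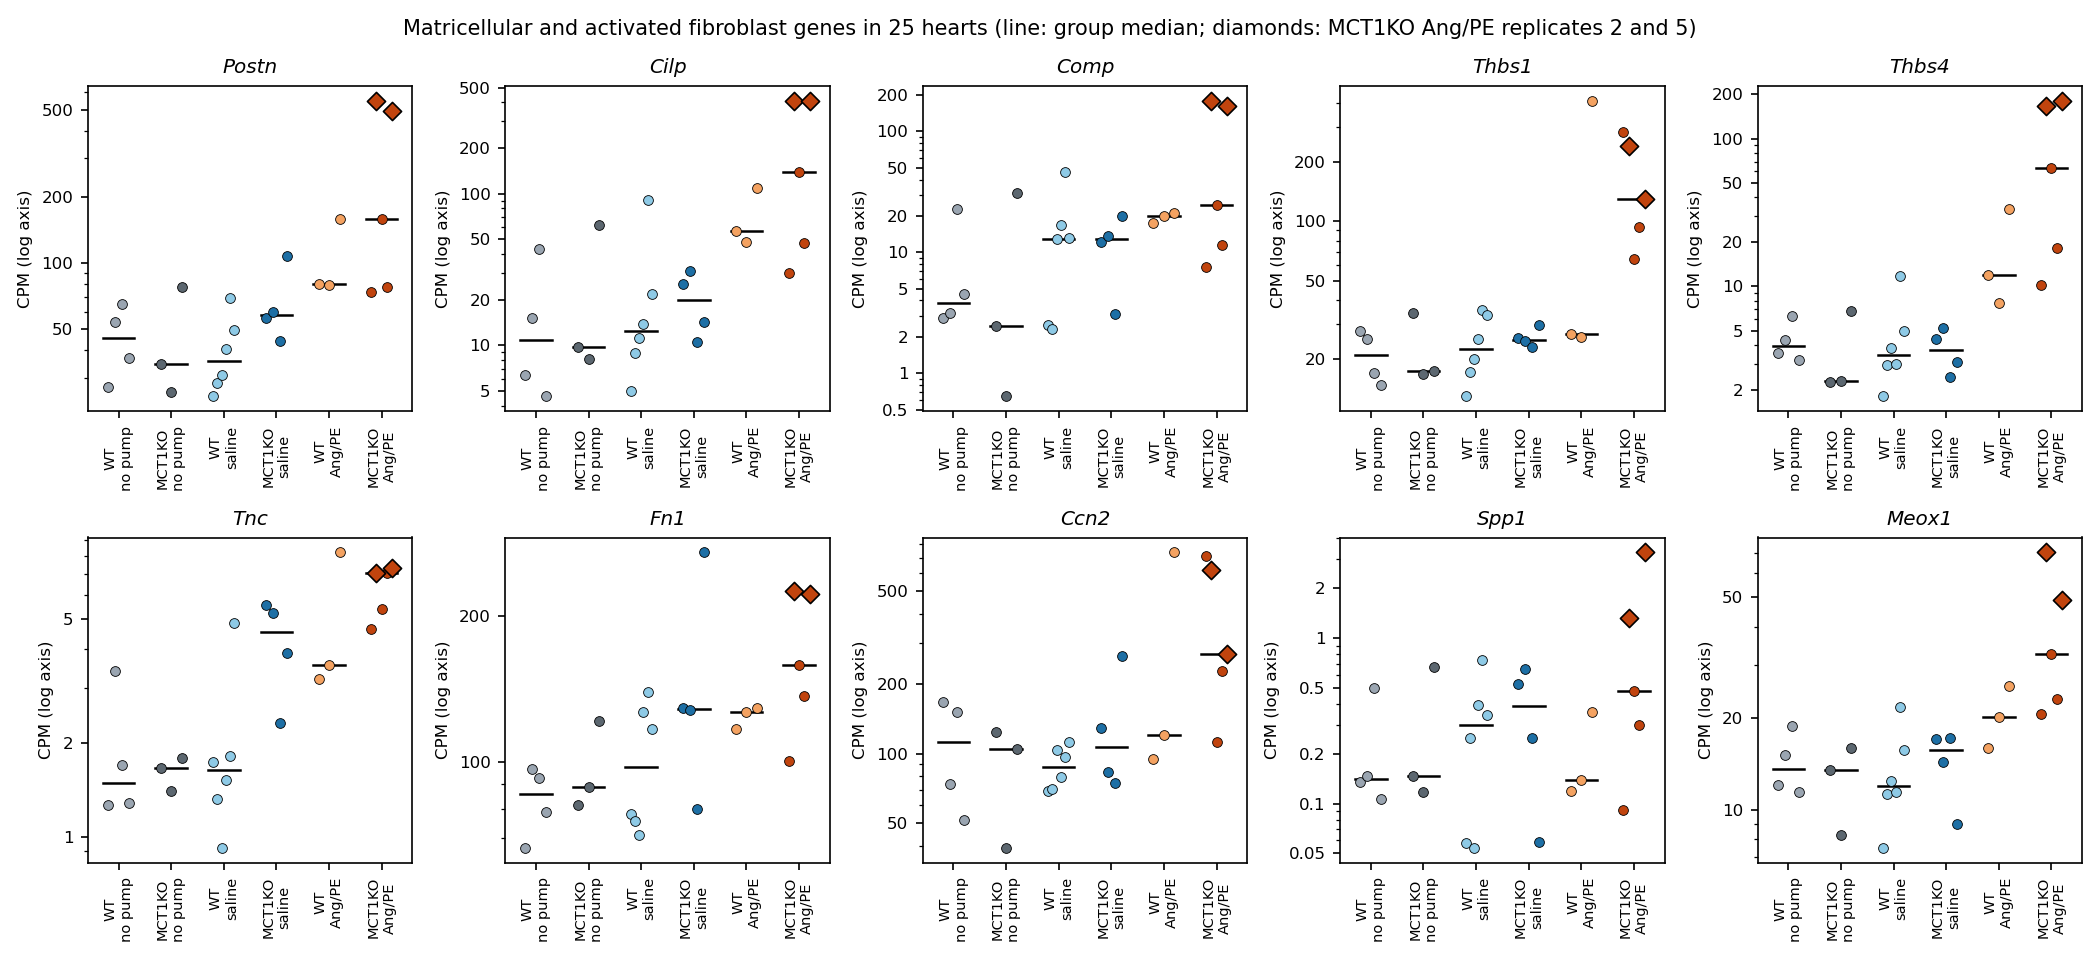
CPM (logarithmic axis, a separate range for each gene) of the 10 genes in each of 25 hearts by group; points are hearts, lines are group medians, and diamonds are MCT1KO Ang/PE replicates 2 and 5. These 2 hearts are the highest of the 25 for Postn, Cilp, Comp, Thbs4, Spp1 and Meox1, while Thbs1 and Ccn2 are highest in WT Ang/PE replicate 3.

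The calls depended on the reference and on single hearts. Without WT Ang/PE replicate 3, 2 of the 10 genes were called against saline (Thbs1 and Thbs4) and 0 against no pump, and the calls over all genes in either direction went from 1435 to 348 and from 274 to 35. Without MCT1KO no pump replicate 2, 0 of the 10 and 32 of all genes were called against no pump. With the mean log2 levels of the atrial and of the adipocyte markers as covariates, 0 were called against saline (and 1 of all genes), and 6 against no pump (505 of all genes). Those markers were high almost only in saline hearts, so against saline that fit cannot separate them from the treatment. With the Xist level added to the fit, 3 were called against saline and 1 against no pump, and 401 and 32 of all genes.

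Postn encodes periostin, a collagen-binding matricellular protein secreted by activated fibroblasts. The WT no pump hearts held 27.2, 53.9, 64.9 and 36.8 CPM, the MCT1KO no pump hearts 34.5, 25.6 and 77.4 CPM, and the MCT1KO saline hearts 56.1, 60.0, 44.2 and 107 CPM. The 6 WT saline hearts ranged from 24.6 to 69.2 CPM, with a median of 35.7. With Ang/PE, the 3 WT hearts held 79.8, 79.4 and 159 CPM and the 5 MCT1KO hearts 74.0, 548, 159, 77.9 and 492 CPM. Every WT Ang/PE heart lay above every WT heart of either reference; in MCT1KO, replicates 2 and 5 stood far above the other 3, of which 2 lay within the saline range. The log2 fold change was 1.70 ± 0.40 (SE) against saline and 1.89 ± 0.45 against no pump (edgeR adjusted p = 0.0143 and 0.0380). Within WT it was 1.39 ± 0.56 against saline (adjusted p = 0.186) and within MCT1KO 2.02 ± 0.57 (adjusted p = 0.0498). Without MCT1KO Ang/PE replicates 2 and 5, the MCT1KO value was 0.63 and its adjusted p 0.435. The MCT1KO call was also lost without any single MCT1KO saline heart, or without MCT1KO Ang/PE replicate 2, 3 or 5 alone (edgeR adjusted p = 0.05413 to 0.1125).

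Thbs4 encodes thrombospondin-4, a pentameric calcium-binding member of the thrombospondin family. In the 17 hearts without Ang/PE it ranged from 1.80 to 11.8 CPM. The 3 WT Ang/PE hearts held 11.9, 7.76 and 33.4 CPM, and the 5 MCT1KO Ang/PE hearts 10.2, 167, 63.1, 18.2 and 181 CPM. Every Ang/PE heart exceeded every heart without a pump, and every MCT1KO Ang/PE heart exceeded every MCT1KO saline heart, whereas 1 WT Ang/PE heart lay below the highest WT saline heart. Its log2 fold change was the largest of the 10 genes, 3.22 ± 0.54 against saline and 3.27 ± 0.60 against no pump (edgeR adjusted p = 0.00400 and 0.0139). In MCT1KO it was 4.54 ± 0.82 and 4.52 ± 0.92 (adjusted p = 0.0114 and 0.0318), and in WT 1.90 ± 0.73 and 2.02 ± 0.81 (adjusted p = 0.172 and 0.481). The difference between the genotypes' responses, 2.64 ± 1.08, did not pass (adjusted p = 0.325).

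Cilp encodes a cartilage intermediate layer protein, which is also made by cardiac fibroblasts and binds growth factors of the transforming growth factor beta family. It already varied widely without Ang/PE: the WT no pump hearts held 6.41, 15.1, 43.0 and 4.61 CPM, the MCT1KO no pump hearts 9.67, 8.14 and 62.4 CPM, and the MCT1KO saline hearts 25.4, 30.8, 10.5 and 14.3 CPM. The WT saline hearts ran from 5.00 to 90.6 CPM around a median of 12.4. With Ang/PE, WT hearts held 56.3, 48.1 and 108 CPM and MCT1KO hearts 29.99, 409, 139, 46.9 and 407 CPM. A single heart in each of the 4 reference groups (43.0, 62.4, 90.6 and 30.8 CPM) reached the Ang/PE range. The mean response was 2.42 ± 0.68 on the log2 scale against saline (edgeR adjusted p = 0.0345) and 2.49 ± 0.76 against no pump (adjusted p = 0.105). The call against saline was lost without WT Ang/PE replicate 3 (adjusted p = 0.117). It was also lost without WT saline replicate 3, 4 or 6, MCT1KO saline replicate 1, 2 or 4, or MCT1KO Ang/PE replicate 5 (edgeR adjusted p = 0.0512 to 0.0681).

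Comp, the cartilage oligomeric matrix protein and a close relative of thrombospondin-4, was highest in the same hearts as Cilp but was not called. The WT Ang/PE hearts held 17.5, 19.99 and 21.1 CPM and the MCT1KO Ang/PE hearts 7.59, 180, 24.7, 11.6 and 164 CPM. Without Ang/PE the hearts ranged from 0.644 to 46.6 CPM, the widest relative range of the 10 genes in those 17 hearts. The log2 fold change was 1.49 ± 0.77 against saline (edgeR adjusted p = 0.239) and fell to 0.29 without MCT1KO Ang/PE replicates 2 and 5.

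Outside the Ang/PE and MCT1KO saline groups, the high hearts of Cilp and Comp were WT no pump replicate 3, MCT1KO no pump replicate 3 and WT saline replicate 5. In each of those groups the same heart had the highest sum of the 8 fibroblast identity markers, at 4733, 3129 and 3540 CPM against group medians of 2553, 2118 and 2268. Most of that sum came from Gsn (960 to 3012 CPM over the 25 hearts) and Dcn (284 to 951 CPM). The MCT1KO saline group differed for Cilp: replicate 4 had its highest fibroblast sum (3565 CPM) and its highest Comp (19.9 CPM), but held 14.3 CPM of Cilp against 25.4 and 30.8 CPM in replicates 1 and 2, whose sums were 2218 and 2294 CPM. MCT1KO Ang/PE replicates 2 and 5 also had the highest sums of their group, 2998 and 2472 CPM, but these lay inside the range of the hearts without Ang/PE (1616 to 4733). Whether the fibroblast RNA content bore on the levels of these genes was not tested, and in whole hearts more cells of a type cannot be told apart from more RNA per cell.

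RefSeq start-site windows (build GRCm38.p6, 250 bases before to 50 after the start) were found for 5 of the 10 genes. Those of Postn (chr3:54360857-54361156, plus strand), Cilp (chr9:65264930-65265229, plus strand) and Thbs4 (chr13:92794769-92795068, minus strand) are shown because these 3 genes varied together among hearts (r = 0.86 to 0.91, described further on). They are written 5′ to 3′, with capitals marking matches to TATAAA or to the TEAD element GGAATG on either strand.
Postn: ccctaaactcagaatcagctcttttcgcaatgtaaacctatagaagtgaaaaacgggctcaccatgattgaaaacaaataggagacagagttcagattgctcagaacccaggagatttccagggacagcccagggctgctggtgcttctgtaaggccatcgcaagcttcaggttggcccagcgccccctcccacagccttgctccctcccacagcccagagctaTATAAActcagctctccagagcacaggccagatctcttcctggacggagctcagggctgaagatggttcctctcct
Cilp: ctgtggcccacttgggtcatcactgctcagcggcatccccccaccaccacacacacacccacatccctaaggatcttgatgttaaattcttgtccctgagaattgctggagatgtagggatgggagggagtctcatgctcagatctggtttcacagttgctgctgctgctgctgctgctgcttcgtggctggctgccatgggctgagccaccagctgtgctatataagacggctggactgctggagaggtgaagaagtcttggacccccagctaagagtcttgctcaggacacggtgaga
Thbs4: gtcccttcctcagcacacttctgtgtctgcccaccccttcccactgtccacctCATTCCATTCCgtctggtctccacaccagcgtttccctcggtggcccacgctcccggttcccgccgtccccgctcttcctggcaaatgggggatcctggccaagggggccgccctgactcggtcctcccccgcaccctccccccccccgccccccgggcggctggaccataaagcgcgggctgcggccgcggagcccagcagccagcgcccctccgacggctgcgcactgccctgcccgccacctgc
Postn had a TATAAA match starting 26 bases before the start site; 13.6% of 32851 windows of that length held one. Thbs4 had 2 TEAD matches on the strand opposite to the printed one, read here as CATTCC, at 197 and 192 bases before the start, which overlap by 1 base; 14.7% of all windows held at least 1. Cilp had no exact match to either. Its window holds the similar letters tatataag, which the search for TATAAA does not count. The windows of Tnc and Spp1, not shown, held TATAAA 126 and 211 bases before the start. None of the 5 windows matched the AP-1 element TGANTCA (7.81% of windows), the SMAD palindrome GTCTAGAC (0.213%), the CAGA box AGCCAGACA (0.387%) or the CArG box (1.63%), all searched on both strands.

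Meox1 was even across the reference groups. Its median was 13.6 CPM in WT and 13.5 in MCT1KO hearts without a pump and 11.9 and 15.8 with saline. The WT Ang/PE hearts held 15.9, 20.2 and 25.5 CPM and the MCT1KO Ang/PE hearts 20.7, 70.3, 32.6, 23.1 and 48.8 CPM. All 5 MCT1KO Ang/PE hearts lay above all MCT1KO hearts of both references. The mean response was 1.03 ± 0.24 (log2) against saline and 1.07 ± 0.27 against no pump (edgeR adjusted p = 0.0139 and 0.0452), and in MCT1KO 1.44 ± 0.34 against saline (adjusted p = 0.0223). Without MCT1KO Ang/PE replicate 5 the MCT1KO adjusted p was 0.0504, and without MCT1KO saline replicate 4 it was 0.129.

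Thbs1 and Ccn2 were highest in a partly different set of hearts. It was WT Ang/PE replicate 3 and MCT1KO Ang/PE replicates 1 and 2, of which MCT1KO replicate 2 was also high for the genes above. Thbs1 encodes thrombospondin-1, an activator of latent transforming growth factor beta, and Ccn2 encodes connective tissue growth factor, a secreted protein and known target of TEAD and YAP. Thbs1 lay between 12.96 and 35.6 CPM in the 17 hearts without Ang/PE. The WT Ang/PE hearts held 26.9, 26.0 and 410 CPM, and the MCT1KO Ang/PE hearts 284, 240, 64.2, 93.2 and 130 CPM. Thus 2 of 3 WT Ang/PE hearts remained within the reference range and 1 was the highest of all 25, while all 5 MCT1KO hearts lay above every heart without Ang/PE. The mean log2 fold change was 2.67 ± 0.47 against saline and 2.84 ± 0.53 against no pump (edgeR adjusted p = 0.00495 and 0.0139). The MCT1KO response was 2.66 ± 0.68 (adjusted p = 0.0302). That call was lost without MCT1KO saline replicate 1, 2 or 4, or MCT1KO Ang/PE replicate 1 or 2 (edgeR adjusted p = 0.05175 to 0.1266). The WT value of 2.68 ± 0.63 (adjusted p = 0.0611) fell to 0.15 without WT Ang/PE replicate 3.

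Ccn2 was the most abundant of the 10 genes per kilobase of transcript in all 6 groups, at means of 35.5 to 156 CPM per kilobase. The WT Ang/PE hearts held 95.1, 120 and 737 CPM and the MCT1KO Ang/PE hearts 709, 618, 112, 228 and 270 CPM. Without Ang/PE the range was 39.3 to 263 CPM, the top being MCT1KO saline replicate 4, the heart with the most atrial and fat RNA. The groups overlapped in both genotypes. The mean log2 fold change was 1.67 ± 0.44 against saline (edgeR adjusted p = 0.0261) and 1.82 ± 0.49 against no pump (adjusted p = 0.0680). Without WT Ang/PE replicate 3 the value against saline was 0.89 (adjusted p = 0.226), and the WT value fell from 1.84 to 0.30.

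**Figure D2:**
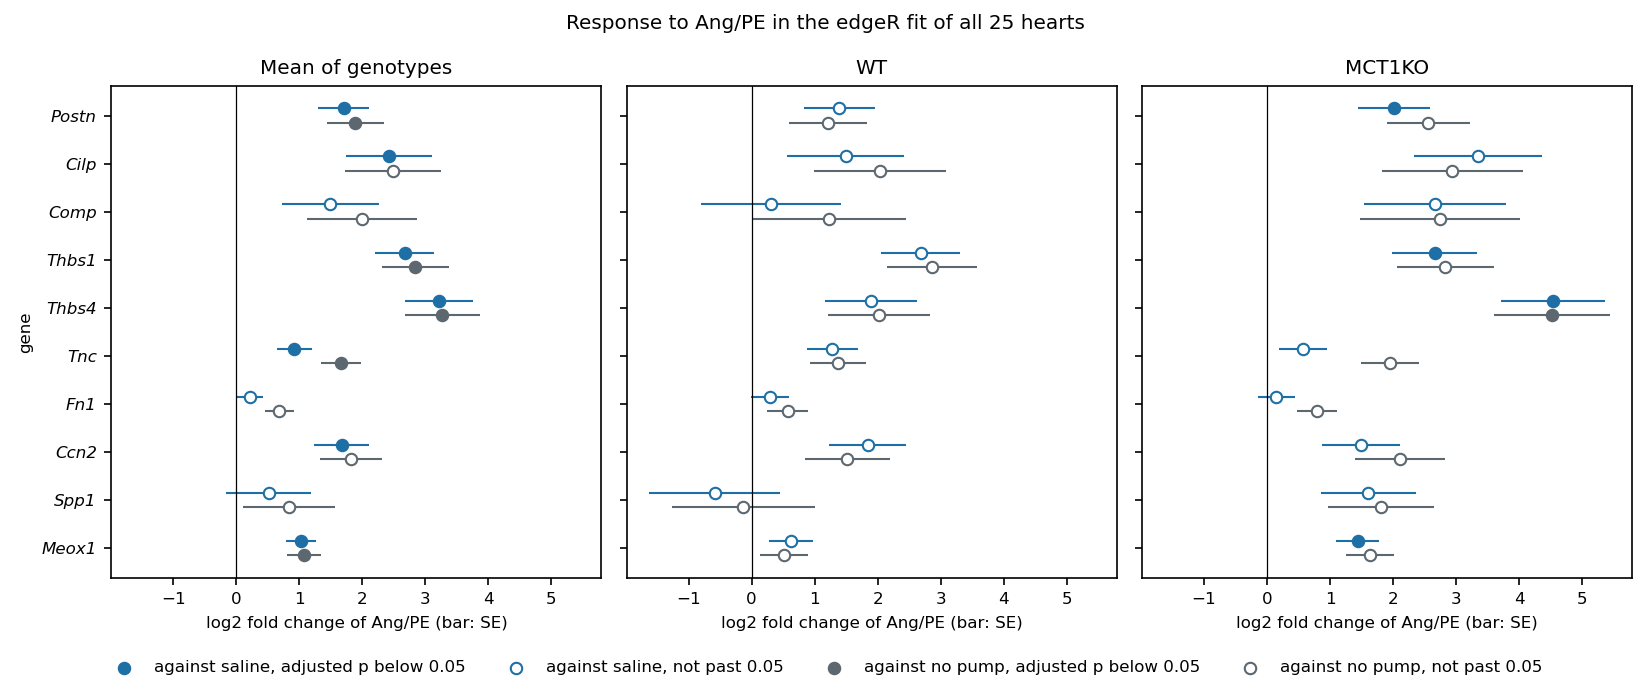
Log2 fold change of Ang/PE against saline (blue) and against no pump (grey) for each gene, averaged over genotypes, in WT and in MCT1KO; bars are standard errors and filled points have an edgeR adjusted p below 0.05. In the mean of genotypes 7 genes are filled against saline and 5 against no pump; in WT none is.

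Tnc encodes tenascin-C, an anti-adhesive glycoprotein of remodelling tissue, and was low throughout (0.921 to 8.22 CPM). The WT Ang/PE hearts held 3.22, 3.56 and 8.22 CPM and the MCT1KO Ang/PE hearts 4.66 to 7.32 CPM. The 3 MCT1KO hearts without a pump lay at 1.41 to 1.79 CPM, below all 4 MCT1KO saline hearts (2.31 to 5.55 CPM) and all 5 MCT1KO Ang/PE hearts. Tnc was 0.92 ± 0.28 higher on the log2 scale under Ang/PE than with saline and 1.66 ± 0.32 higher than without a pump (edgeR adjusted p = 0.0421 and 0.0139). The larger contrast in MCT1KO was thus with the hearts without a pump (1.95 ± 0.46, adjusted p = 0.0504) and not with saline (0.57 ± 0.38, adjusted p = 0.418). Saline exceeded no pump by 1.38 ± 0.46 in MCT1KO, which did not pass (adjusted p = 0.236). The call against saline was lost in most fits that left out 1 heart (adjusted p up to 0.233, without WT Ang/PE replicate 3).

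Fn1 ranged from 66.7 to 270 CPM and was not called. Its medians were 85.9 and 88.8 CPM in WT and MCT1KO hearts without a pump, 97.6 and 129 with saline, and 126.5 and 158 with Ang/PE. The highest heart was again MCT1KO saline replicate 4. The log2 fold change was 0.22 ± 0.21 against saline, with a 95% interval of -0.21 to 0.65, and 0.68 ± 0.23 against no pump (edgeR adjusted p = 0.552 and 0.137).

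Spp1 encodes osteopontin, a secreted phosphoprotein of activated macrophages and fibroblasts. It was near the detection limit, at 0.0542 to 0.738 CPM in hearts without Ang/PE. Among Ang/PE hearts, MCT1KO replicates 2 and 5 held 1.33 and 3.30 CPM and the other 6 held 0.0914 to 0.478 CPM. The log2 fold change of 0.51 ± 0.68 against saline was not called (edgeR adjusted p = 0.694), and it was -0.46 without those 2 hearts. The 8 macrophage markers summed to 273 and 211 CPM in these 2 hearts, against 163 to 181 CPM in the other MCT1KO Ang/PE hearts. Both sums lay within the 159 to 355 CPM of the hearts without Ang/PE. Whether macrophage RNA bore on the Spp1 level was not tested.

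**Figure D3:**
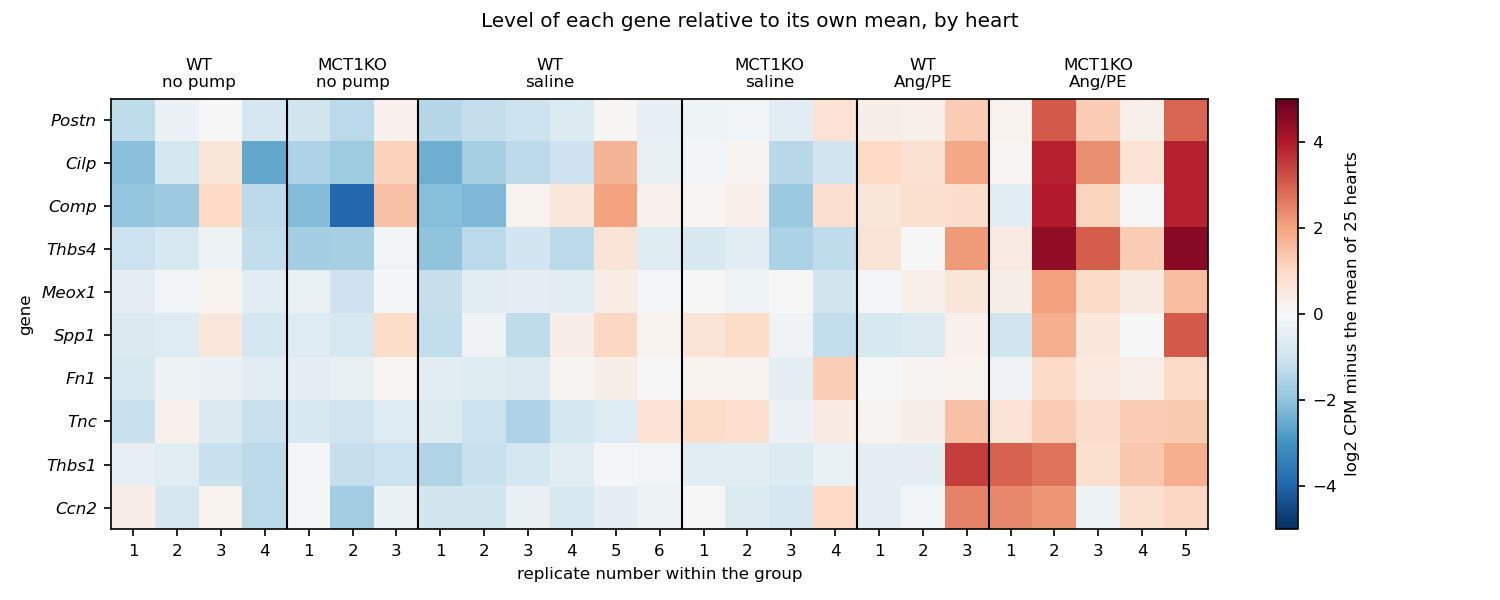
Log2 CPM of each gene minus its mean over the 25 hearts (colour), with hearts in columns by group and replicate number. MCT1KO Ang/PE replicates 2 and 5 are high in the upper 6 rows (Postn, Cilp, Comp, Thbs4, Meox1, Spp1), and WT Ang/PE replicate 3 and MCT1KO Ang/PE replicates 1 and 2 are the 3 highest hearts in the Thbs1 and Ccn2 rows.

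The 10 genes fell into patterns across hearts that crossed the treatment groups. Deviations of log2 CPM from the group mean were correlated for all 45 pairs over the 25 hearts, with 100000 permutations of hearts within groups. Cilp and Thbs4 were the closest pair (Pearson r = 0.91, Spearman rho = 0.91, permutation p = 1e-05 for each, adjusted p = 7.5e-05 and 0.00015; 1e-05 is the smallest the permutations can give). Postn and Thbs4 followed (r = 0.89, rho = 0.85, adjusted permutation p = 0.000135 and 0.0002). Without the 2 hearts farthest from the median of the gene named before the other, r was 0.90 and 0.85. Fn1 passed with Postn, Comp, Cilp and Thbs4 (r = 0.81, 0.74, 0.65 and 0.61, adjusted permutation p = 7.5e-05 to 0.00317). By Pearson it did not pass with Spp1 or Meox1 (r = 0.48 and 0.36, adjusted permutation p = 0.0805 and 0.201). Thbs1 and Ccn2 formed another close pair (r = 0.82, rho = 0.78, permutation p = 0.00011 and 0.00014, adjusted p = 0.000381 and 0.000525). Their r was 0.77 without the 2 farthest hearts. Neither passed with any of the remaining 8 genes, with r from 0.07 (Ccn2 and Spp1) to 0.45 (Thbs1 and Tnc, adjusted permutation p = 0.0862). In all, 21 of 45 pairs passed by Pearson and 28 by Spearman, and none had a negative r. Pairs of other genes were not correlated in this way, so no share over all genes stands beside these counts. Whether they are particular to the 10 genes was not tested. Without MCT1KO Ang/PE replicates 2 and 5, r was 0.90 for Cilp and Thbs4 and 0.81 for Thbs1 and Ccn2.

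**Figure D4:**
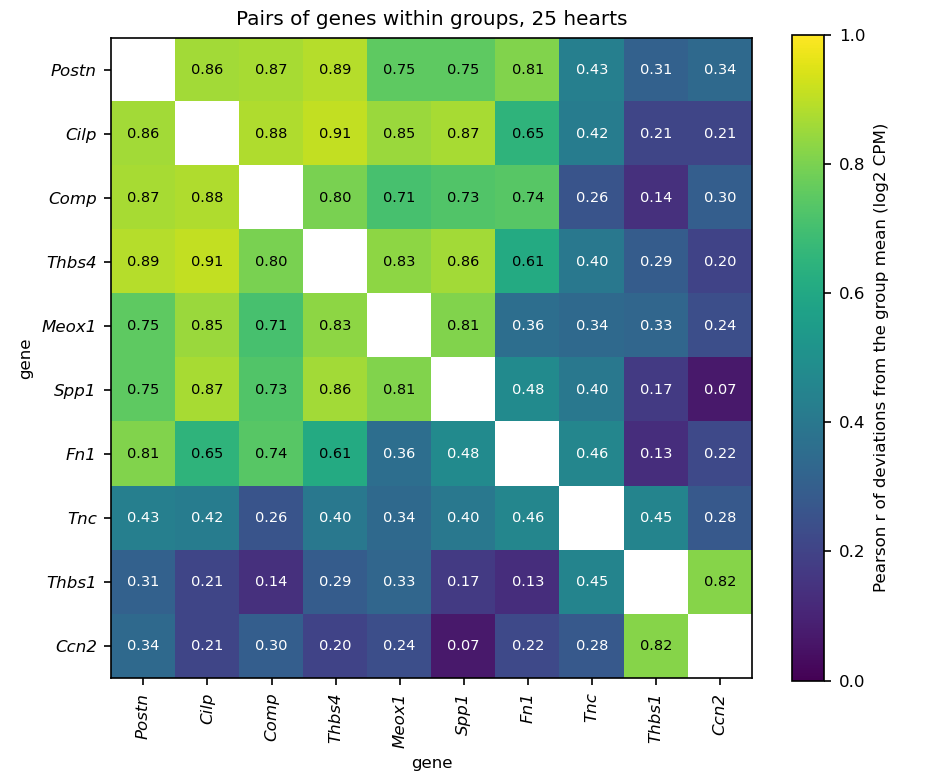
Pearson r between genes of the deviations of log2 CPM from the group mean over 25 hearts (number and colour in each square). Postn, Cilp, Comp, Thbs4, Meox1 and Spp1 form a block with r of at least 0.71, and Thbs1 with Ccn2 stands apart from it at 0.82. Fn1 with the genes of the block runs from 0.36 (Meox1) to 0.81 (Postn).

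The genotypes were also compared within each treatment. None of the 10 genes differed by edgeR's test between the libraries labelled MCT1KO and WT without a pump, with saline or with Ang/PE, and none passed the interaction of genotype with Ang/PE; 0% of all genes passed any of these 4. At an unadjusted p below 0.05 there were 0, 2, 4 and 1 genes of the 10, where the shares of all genes were 12.2%, 17%, 6.92% and 13.5%, so the 2 and the 1 were near the share over all genes. DESeq2 called 0 of the 10 in each. With Ang/PE all 10 values were higher in MCT1KO, as were 50.8% of all genes, with a median log2 difference of 1.14 over the 10 and 0.00 over all genes. The 4 with an unadjusted p below 0.05 were Thbs4 (2.32 ± 0.80), Spp1 (2.48 ± 0.96), Postn (1.35 ± 0.62) and Meox1 (0.93 ± 0.37), and their edgeR adjusted p ranged from 0.692 to 0.711. The 95% interval for Thbs4 ran from 0.65 to 3.99. Postn differed by -0.03 without MCT1KO Ang/PE replicates 2 and 5. Thbs1 and Ccn2 differed by 0.08 ± 0.67 and 0.29 ± 0.66, intervals that allow differences from -1.32 to 1.47 and from -1.09 to 1.66.

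The pump with saline left all 10 genes uncalled against no pump in both genotypes, with log2 differences of -0.33 to 0.92 in WT and -0.41 to 1.38 in MCT1KO. In WT 6.61% of all genes were called in either direction, and in MCT1KO 0.00566%. None of the 10 had an unadjusted p below 0.05 in WT and 1 did in MCT1KO (Tnc, whose groups did not overlap; 4.67% of all genes were higher without overlap there). DESeq2 called 0 in each genotype. Within WT alone, 0 genes were called for Ang/PE against saline (background 0.0113% called higher) or no pump (background 0%), with 5 and 4 at an unadjusted p below 0.05, as were 19.1% and 9.02% of all genes. DESeq2 called 2 and 1 of the 10 there, and 641 and 35 of all genes. Within MCT1KO, 4 were called against saline (Postn, Thbs1, Thbs4 and Meox1; background 1.75%) and 1 against no pump (Thbs4; background 0.249%). Without MCT1KO Ang/PE replicates 2 and 5 these counts were 1 and 0.

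Separation of the groups was read for the single genotypes as well. Against saline, every Ang/PE heart exceeded every reference heart for Postn in WT (6.39% of all genes did so) and for Thbs1, Thbs4 and Meox1 in MCT1KO (3.06%). Against no pump, this held for Postn, Cilp, Thbs4 and Fn1 in WT (3.63%) and for Thbs1, Thbs4, Tnc and Meox1 in MCT1KO (4.49%). With both genotypes together it held for Thbs4 against no pump (0.181%) and for none of the 10 against saline (0.102%).

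The wider fibroblast programme was read from lists of related genes. Of all genes, 3.89% were called higher and 4.22% lower against saline, and 0.911% and 0.639% against no pump; 24.7% and 15.9% had an unadjusted p below 0.05. Of 19 other genes of activated fibroblasts, 7 rose and 0 fell against saline: Aspn, Scx, Mfap5, Lox, Col12a1, Cthrc1 and Col8a1. Aspn, the small leucine-rich proteoglycan asporin, rose by 1.32 ± 0.27 (log2), and Scx, the tendon transcription factor scleraxis, by 0.97 ± 0.20 (edgeR adjusted p = 0.00750 for each). Against no pump 2 rose: Scx by 0.99 ± 0.22 and the fibril-associated collagen gene Col12a1 by 2.73 ± 0.66 (edgeR adjusted p = 0.0294 and 0.0451). The median of the list was 0.87 against saline and 0.75 against no pump. Against saline, 13 of the 19 values were above 0 and 12 of the 19 genes were not called. Below 0 were Acta2 (-0.32 ± 0.28), Tagln (-0.68 ± 0.39), Col1a1 (-0.09 ± 0.20), Col1a2 (-0.08 ± 0.20), Col3a1 (-0.05 ± 0.22) and Col5a1 (-0.10 ± 0.11). Against no pump the values of these genes ran from 0.10 to 0.42, and none of them was called. Without MCT1KO Ang/PE replicates 2 and 5, edgeR called 3 and 0 genes of the list higher, and with the atrial and adipocyte covariates 0 and 3. The 8 fibroblast identity markers had 0 genes called in either comparison by edgeR (2 and 1 at an unadjusted p below 0.05), with medians of 0.03 and -0.14.

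The relatives of the 10 genes moved less uniformly. Of 18 tested relatives, 1 rose and 4 fell against saline. Ccn1, a matricellular protein of the same family as Ccn2, rose by 1.65 ± 0.45 on the log2 scale (edgeR adjusted p = 0.0304). Tnxb, the gene of tenascin-X, fell by 0.50 ± 0.09 (adjusted p = 0.00495), and Cilp2 fell by 3.34 ± 0.94 (adjusted p = 0.0358); Ccn3 and Meox2 were the other 2 that fell. The direction of Cilp2 turned with the reference, since it was at 2.90 ± 1.51 against no pump (adjusted p = 0.363), while Ccn3 and Meox2 were at -0.39 ± 0.44 and -0.54 ± 0.16 there (adjusted p = 0.740 and 0.0931). The atrial and adipocyte markers fell in the same comparison. With their mean log2 levels as covariates 0 relatives, and 1 of all genes, were called against saline. These markers were high almost only in saline hearts, so that fit cannot separate them from the saline reference. Whether they bore on the relatives was not tested. Against no pump 0 relatives passed by edgeR (4 at an unadjusted p below 0.05; DESeq2 called 1 higher and 3 lower); Thbs2 was at -0.45 ± 0.12 and Tnxb at -0.35 ± 0.10 (edgeR adjusted p = 0.0653 and 0.0712).

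Among 17 receptors of matricellular proteins, 1 rose and 1 fell against saline, 5.88% each way, which is near the share over all genes. The integrin beta chain gene Itgb1 rose by 0.27 ± 0.07 and Itga8 fell by 1.58 ± 0.45 on the log2 scale (edgeR adjusted p = 0.0266 and 0.0355), and against no pump they were at 0.07 ± 0.08 and -0.07 ± 0.48 (adjusted p = 0.753 and 0.970). Against no pump Itga9, whose integrin binds tenascin-C and osteopontin, rose by 0.53 ± 0.10 (adjusted p = 0.0131). Of 18 tested upstream regulators, 3 rose against saline: the receptor gene Tgfbr1 by 0.62 ± 0.14, the TEAD factor gene Tead4 by 0.63 ± 0.15 (edgeR adjusted p = 0.0103 and 0.0136), and Tead1. Against no pump 0 passed by edgeR (10 at an unadjusted p below 0.05; DESeq2 called 2), and Tead1 was at 0.33 ± 0.09 (adjusted p = 0.0681).

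**Figure D5:**
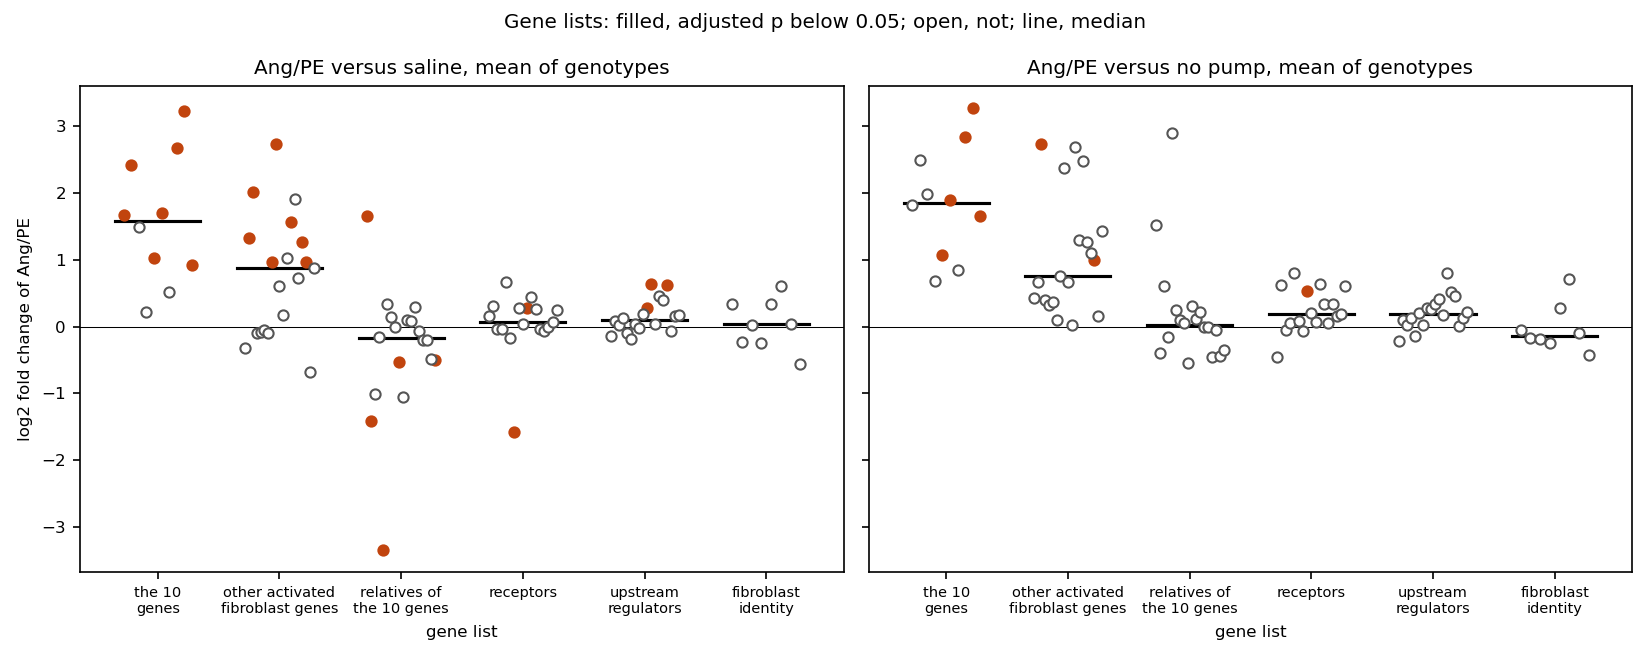
Log2 fold change of Ang/PE against saline (left) and no pump (right), mean of genotypes, for the 10 genes and the 5 lists; each point is a gene, filled where the edgeR adjusted p is below 0.05, and lines are medians. The medians of the 10 genes (1.58 and 1.85) and of the other activated fibroblast genes (0.87 and 0.75) lie above those of the fibroblast identity markers (0.03 and -0.14). Single genes of these lists overlap.

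For each of the 10 genes the tested genes with the most similar level across the 25 hearts were also listed, by Pearson r of log2 CPM, as a description that includes the treatment effect and shared library properties. Postn was closest to Col12a1, Mmp2 and Bgn (r = 0.960, 0.957 and 0.955), and Comp to Angptl7, Col8a2 and Mfap4 (0.961, 0.954 and 0.911). Cilp was closest to Col8a2, Frzb and Ltbp2 (0.946, 0.943 and 0.934), Thbs4 to Frzb, Col12a1 and Col8a1 (0.930, 0.919 and 0.918), Meox1 to Emp1, Col8a1 and Frzb (0.937, 0.929 and 0.927), and Spp1 to Col8a1, Ssc5d and Nlrc3 (0.848, 0.834 and 0.821). Col8a1, Col8a2, Col12a1 and Frzb recurred among these. Thbs1 shared none of them, being closest to B4galt1, Enah and Rcan1 (0.948, 0.925 and 0.923), nor did Ccn2, closest to Fhl1, Hectd2 and Efhd2 (0.901, 0.898 and 0.896). Tnc was closest to Pfkp, Fstl3 and Ppm1e (0.864, 0.863 and 0.832) and Fn1 to Dio2, Myh10 and Map1a (0.941, 0.915 and 0.902).

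Compared per kilobase of the longest transcript, the order of mean levels in WT hearts without a pump was Ccn2 (44.6 ± 22.7 CPM per kilobase, SD, n = 4), Fn1 (10.1 ± 1.66) and Postn (8.76 ± 3.24), then Meox1, Cilp, Thbs1, Comp, Thbs4, Tnc (0.269 ± 0.143) and Spp1 (0.147 ± 0.123). Each neighbouring pair from Fn1 to Thbs4 overlapped within its spread, Postn and Meox1 among them, as did Tnc with Spp1. In MCT1KO Ang/PE hearts Ccn2 still led (156 ± 105, n = 5), followed by Postn (51.7 ± 44.3) and Cilp (49.7 ± 45.4), which did not differ beyond their spread. Thbs4 moved from 1.36 ± 0.435 CPM per kilobase in the former group to 27.5 ± 25.4 in the latter. Tnc ranked 9 and Spp1 10 in all 6 groups.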

How the data were processed

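Hearts were profiled by RNA-seq of ribosome-depleted total RNA with directional libraries, per the labels' protocols. The deposited table holds raw read counts per gene made by the authors. The submitters' processing notes name cutadapt 1.16, STAR 2.7.9a, featureCounts 1.6.3, DESeq2 1.42.1 and the build GRCm39; the annotation release and the strand setting of the counting are not given in the sources used here. Of 56941 genes, 51948 had a symbol in GENCODE M21, and genes without one held 0.778% of counts.

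Counts were fitted with edgeR 4.0.16 (R 4.3.3): TMM scaling, filterByExpr by group (17682 genes kept), robust quasi-likelihood with 1 mean per group over all 25 hearts (19 residual degrees of freedom), 12 two-sided contrasts, and Benjamini-Hochberg adjustment over all tested genes. The mean of genotypes weights WT and MCT1KO equally. CPM used TMM library sizes, and log2 CPM a prior count of 2. Transcript lengths are the longest per gene in GENCODE M21. The procedure was tested on simulated data. Replicates are separate hearts by their labels. Replicate pairs differed beyond sampling noise (lowest chi-square per degree of freedom 3.33 over 43 pairs). The alternatives were RLE scaling, no filter, DESeq2 1.42.0, the compared groups alone, a replicate block, a fit without robust dispersion, covariates, and leaving out each heart. The covariates were the Xist level (log2 of CPM plus 1), or the means of that measure over the atrial and over the adipocyte markers. Leaving out MCT1KO Ang/PE replicates 2 and 5 together was chosen after seeing the data.

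The 10 genes and the gene lists (fibroblast identity, other activated fibroblast genes, relatives, receptors, upstream regulators, and markers of cardiomyocytes, atrial muscle, adipocytes, macrophages, endothelium, smooth muscle and pericytes, mesothelium, cartilage and tendon, and blood) were chosen with earlier results of these data known. Named besides the 10 genes are, per list, up to 2 risen and 2 fallen genes of smallest p among those called in each mean of genotypes comparison (otherwise the 2 of smallest p), and the 3 genes of highest r with each gene. Where a list's count is spelled out, the remaining called genes and Tead1 against saline were named after their values were seen. One further gene of activated fibroblasts is not reported here.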

Additional observations from a re-analysis of the deposited data

Results flagged for a closer look

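Each of the 10 genes was tested for a heart far from the others within the groups of 4 to 6 hearts, 40 tests in all. Such a heart was found in 1 test, where chance alone gives about 2. It was Spp1 in WT no pump replicate 3, at -0.70 log2 CPM against -1.93 for the next highest of the 4 hearts. The same heart had the highest sum of fibroblast identity markers of all 25 (4733 CPM). Spp1 was not called in any comparison.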

How the results depend on the processing

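Over the 6 comparisons of Ang/PE with a reference, the numbers of the 10 genes called (against saline in the mean, WT and MCT1KO, then against no pump in the same order) were 7, 0, 4, 5, 0 and 1, and RLE scaling gave the same numbers. They were 4, 0, 1, 3, 0 and 0 without the filter, 7, 2, 5, 8, 1 and 6 with DESeq2, 6, 0, 0, 1, 0 and 1 with the compared groups alone, 7, 0, 5, 6, 0 and 3 without robust dispersion, 3, 0, 3, 1, 0 and 0 with Xist as covariate, and 0, 0, 0, 6, 0 and 3 with the atrial and adipocyte covariates. Leaving out MCT1KO Ang/PE replicates 2 and 5 gave 5 and 1 against saline and 3 and 0 against no pump (mean and MCT1KO). Leaving out each heart in turn gave 2 to 7, 0 to 1, 0 to 4, 0 to 6, 0 to 0 and 0 to 2. The lowest counts came without WT Ang/PE replicate 3 (2 against saline and 0 against no pump in the mean), MCT1KO saline replicate 4 (0 in MCT1KO against saline) and MCT1KO no pump replicate 2 (0 against no pump in the mean). The same-numbered hearts did not pair (for WT and MCT1KO saline, mean correlation of deviations 0.101, range -0.069 to 0.405), so the replicate block is an alternative only; with the block the numbers were 6, 0, 2, 2, 0 and 2, and 1 of the 10 genes was called between MCT1KO and WT saline hearts. The other 6 comparisons had 0 called under every other alternative run. The cause of these changes was not tested.

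Signs turned in values that were not called. For Spp1 they became 0.08 (WT against saline, replicate block), 0.39 (WT against saline, atrial and adipocyte covariates) and 0.08 (WT against no pump, Xist), and without MCT1KO Ang/PE replicates 2 and 5 -0.46 and -0.33 against saline (mean, MCT1KO) and -0.13 and -0.13 against no pump. Fn1 became -0.09 between MCT1KO and WT saline hearts with the atrial and adipocyte covariates, and -0.21 in MCT1KO against saline without the 2 hearts, and Postn -0.03 between genotypes under Ang/PE. Leaving out 1 heart, Spp1 in WT against no pump ran from -0.74 to 0.60, Ccn2 there from -0.03 to 1.95, and Fn1 in MCT1KO against saline from -0.07 to 0.57. Over all genes, the calls for Ang/PE against saline in the mean of genotypes numbered 1435, 2012 with DESeq2, 715 with the block and 1 with the atrial and adipocyte covariates, and against no pump 274, 646, 125 and 505. Low counts limit Spp1, and groups of 3 to 6 hearts with wide spread limit the rest.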

Other observations

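The remaining marker lists gave the following values. Under Ang/PE, 2 of 4 tested cartilage and tendon markers rose against saline, Tnmd and Prg4, named after their values were seen (log2 4.12 ± 1.23 and 0.89 ± 0.24). The other 2, Chad and Sox9, were at -2.47 ± 0.77 and -0.64 ± 0.28 and did not pass (edgeR adjusted p = 0.0502 and 0.149), and the median of the 4 was 0.12. Against no pump Chad was at 1.76 ± 1.32 (adjusted p = 0.562), and Prg4 alone of the 4 rose. The sum of the 6 genes of that list was 36.1 and 39.1 CPM in MCT1KO Ang/PE replicates 2 and 5 and 28.9 CPM in WT Ang/PE replicate 3, against 8.89 to 22.8 CPM in the 17 hearts without Ang/PE; Acan and Col2a1 reached at most 1.416 and 0.407 CPM in any heart. Blood cell markers, mostly hemoglobin genes, ranged from 282 to 2048 CPM, with the highest value in MCT1KO Ang/PE replicate 2. Macrophage, endothelial, cardiomyocyte and blood cell markers had 0 genes called for Ang/PE against either reference in the mean of genotypes (edgeR; at an unadjusted p below 0.05 against saline 1, 0, 0 and 0, and against no pump 3, 1, 0 and 0). Of 6 smooth muscle and pericyte markers, 0 were called against saline and 1 was lower against no pump. Of 5 mesothelial markers, 0 were called in either comparison (4 and 0 at an unadjusted p below 0.05), and their sum was highest in MCT1KO saline replicate 4 (110 CPM). All 3 atrial markers and 3 of 5 adipocyte markers were lower with Ang/PE than with saline, and none of either list passed against no pump.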
